A study of Mus musculus with 18 samples.

Results

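Zbtb16 and Tsc22d3 encode transcriptional regulators that corticosteroid hormones are known to induce, and both were followed here in mouse aorta by all of their array probe sets. A probe set is a group of short probes read together as 1 measurement of a transcript. Of the 22690 probe sets in the value table, 5 are annotated to these 2 genes alone: 2 to Zbtb16 and 3 to Tsc22d3. The genes, 2 of 12393 named by a single symbol on the array, were chosen by their log2 differences between aldosterone and vehicle, which were already known, so those differences are given below as descriptions without a test. The tests concern change in vehicle culture, a contrast that did not choose the genes, although it uses the same vehicle samples.

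Zbtb16 encodes PLZF, a nuclear protein with a BTB domain for dimerisation and corepressor binding and a row of zinc fingers that bind DNA. Tsc22d3 encodes GILZ, the glucocorticoid-induced leucine zipper, a small protein that binds the NF-kB subunit RelA and AP-1 proteins and restrains their activity. Aldosterone binds the mineralocorticoid receptor and, less tightly, the glucocorticoid receptor, and each receptor acts as a ligand-driven transcription factor at shared DNA elements.

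The study compared aortas from male wild-type C57Bl/6 mice that were cultured with aldosterone at 100 nM or with vehicle for 2, 4 or 8 h. All animals, those of the vehicle groups included, had first carried a subcutaneous spironolactone pellet (20 mg/kg/day for 5 days), a mineralocorticoid receptor antagonist, so no group shows untreated tissue. The 6 groups were aldosterone and vehicle at 2 h, at 4 h and at 8 h, each with 3 samples, and each sample pooled 3 aortas. The values are log2 expression estimates from 1-colour Affymetrix arrays, and their number limits the precision.

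Markers of smooth muscle (8 of 8), endothelium (8 of 8), fibroblasts (7 of 7) and macrophages (8 of 8) were above log2 4 in at least 3 samples, as were 6 of 7 adipocyte markers on the array. None of 6 skeletal muscle markers and none of 8 lymphocyte and natural killer T cell markers reached this. One library stood apart: in vehicle 2 h replicate 1, 13.4% of 11236 probe sets differed by more than 1 log2 unit from the mean of the other 2 samples of its group, against 0.231% to 3.32% in the other 17. Its array median was 4.42, and those of the other arrays lay between 4.01 and 4.09. The results for both genes that use it are also given without it, as are several of those for the gene lists. Over the 11236 probe sets, limma (moderated linear models, Benjamini-Hochberg adjusted p under 0.05) called 0.0712% at 2 h (8 probe sets, or 36 without that library), 0.222% at 4 h and 1.01% at 8 h between aldosterone and vehicle. In vehicle culture it called 36.5% between 4 and 2 h, 35.4% between 8 and 4 h and 56.3% between 8 and 2 h.

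RefSeq lists alternative transcription starts for Tsc22d3, and the windows at 3 of them are shown because its probe sets were built on different transcript records. Each runs from 250 bases before to 50 bases after a start (GRCm38.p6, minus strand, printed 5′ to 3′ along the gene), and none of the probe sets was assigned to a start here. Windows matched by symbol numbered 3 for Tsc22d3 and 0 for Zbtb16. Capitals mark matches to the motifs described after the windows.
Tsc22d3 window at chrX:140542619-140542918: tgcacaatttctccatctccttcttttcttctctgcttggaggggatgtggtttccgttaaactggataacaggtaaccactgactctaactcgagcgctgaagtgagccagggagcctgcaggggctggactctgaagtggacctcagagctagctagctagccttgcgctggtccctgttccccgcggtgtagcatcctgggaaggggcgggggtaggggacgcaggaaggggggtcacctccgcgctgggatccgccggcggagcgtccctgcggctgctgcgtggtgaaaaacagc
Tsc22d3 window at chrX:140548522-140548821: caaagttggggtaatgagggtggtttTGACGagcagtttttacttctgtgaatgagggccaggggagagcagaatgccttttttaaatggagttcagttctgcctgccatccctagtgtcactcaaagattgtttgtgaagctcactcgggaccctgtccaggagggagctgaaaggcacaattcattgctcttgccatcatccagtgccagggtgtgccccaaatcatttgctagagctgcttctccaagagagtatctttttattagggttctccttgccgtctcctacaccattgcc
Tsc22d3 window at chrX:140600473-140600772: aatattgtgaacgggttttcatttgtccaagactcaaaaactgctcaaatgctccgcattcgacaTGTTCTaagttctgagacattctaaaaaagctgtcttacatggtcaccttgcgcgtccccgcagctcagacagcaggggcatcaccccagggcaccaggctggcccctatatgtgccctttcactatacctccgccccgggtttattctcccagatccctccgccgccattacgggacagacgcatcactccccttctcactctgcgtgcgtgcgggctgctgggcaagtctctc

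Both strands of each window were searched for 6 motifs. The window at chrX:140600473-140600772 held the only match to the steroid receptor half-site TGTNCT, as TGTTCT beginning at position -185 from the start. Of all 32851 promoter windows of this length, 50.5% held that motif. The window at chrX:140548522-140548821 held TGACG, the core of the cyclic AMP response element, at -224, as did 20.8% of all windows. No window of Tsc22d3 matched the full palindromic glucocorticoid response element, GNACA and TGTNC spaced by 3 bases (0.475% of all windows), the FOXO motif GTAAACA (3.65%), TATAAA (13.6%) or CCAAT (37.4%). A missing match concerns only these letters in these windows, and a match is a description and not a bound site. GC content was 60.3%, 48.7% and 54.3% in the windows as printed from top to bottom.

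By group means, Zbtb16 stood higher with aldosterone at 4 and 8 h than at 2 h, while it fell in vehicle cultures. Probe set 1419874_x_at was above log2 4 in all 18 samples and averaged 8.35 over them. At 2 h it read 8.77, 8.65 and 8.48 with aldosterone, against 8.52, 8.53 and 8.91 with vehicle, and the groups overlapped. At 4 h the aldosterone samples stood at 9.74, 9.55 and 9.73, against 7.59, 7.72 and 8.34 with vehicle. At 8 h they stood at 9.05, 9.22 and 8.89, against 6.25, 6.49 and 5.96 with vehicle. Every aldosterone sample at 4 and 8 h was above every vehicle sample of its time.

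The log2 difference for 1419874_x_at, aldosterone minus vehicle, was -0.02 ± 0.19 (SE) at 2 h, 1.80 ± 0.19 at 4 h and 2.82 ± 0.19 at 8 h, the last being 7.06-fold. Among 11236 probe sets ranked by this difference it stood in place 4 at 4 h and in place 2 at 8 h. Its group means ran, from the top, 9.67 ± 0.10 (SD, n = 3) in aldosterone at 4 h, 9.05 ± 0.16 in aldosterone at 8 h, 8.65 ± 0.22 in vehicle at 2 h, 8.63 ± 0.15 in aldosterone at 2 h, 7.88 ± 0.40 in vehicle at 4 h and 6.23 ± 0.27 in vehicle at 8 h. Neighbours in this order were separated sample by sample, except for both 2 h groups and for aldosterone at 8 h next to vehicle at 2 h.

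The suffix of 1419874_x_at marks a probe set with probes that can match other transcripts. The other Zbtb16 probe set, 1427638_at, carries no such mark, was built on accession Z47205 and read lower, with a mean of 5.56. It read 5.39, 6.12 and 5.83 with aldosterone at 2 h, against 6.08, 5.74 and 5.99 with vehicle. At 4 h it read 7.11, 5.99 and 6.05 with aldosterone, against 4.88, 4.86 and 6.02 with vehicle, so vehicle replicate 3 reached into the aldosterone range. At 8 h the groups were apart, at 5.91, 6.03 and 6.04 with aldosterone, against 3.95, 3.68 and 4.44 with vehicle.

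For 1427638_at the aldosterone minus vehicle difference was -0.16 ± 0.32 at 2 h, 1.13 ± 0.32 at 4 h and 1.97 ± 0.32 at 8 h, the last 3.92-fold. Both Zbtb16 probe sets thus gave no clear difference at 2 h and their larger one at 8 h, with a smaller fold for the dimmer probe set. Across the 18 samples they correlated at r = 0.907, as a description of probe sets that share libraries.

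**Figure D1:**
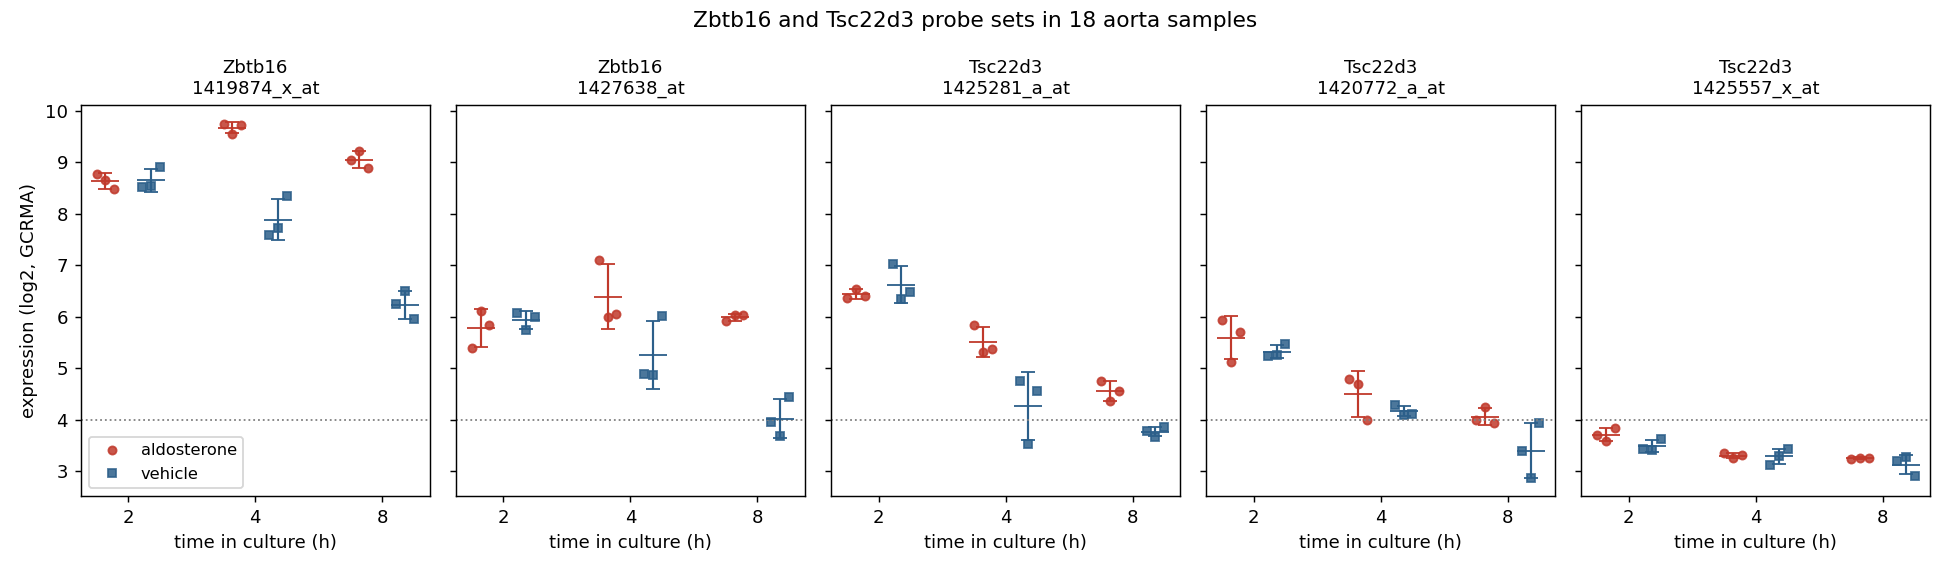
Log2 expression (vertical axis) of the 2 Zbtb16 and 3 Tsc22d3 probe sets by time in culture, with aldosterone samples as red circles and vehicle samples as blue squares; bars give the mean and SD of 3 samples and the dotted line marks log2 4. Zbtb16 1419874_x_at stayed between 8.48 and 9.74 with aldosterone and reached 5.96 to 6.49 with vehicle at 8 h, while Tsc22d3 1425281_a_at went down in both arms.

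The signal of Tsc22d3 went down with time in both arms, less far with aldosterone at 4 and 8 h. Probe set 1425281_a_at, built on AF201289, averaged 5.19 and was above log2 4 in 14 of 18 samples. At 2 h it read 6.37, 6.54 and 6.41 with aldosterone, against 7.03, 6.35 and 6.47 with vehicle, and the groups overlapped. At 4 h it read 5.84, 5.31 and 5.38 with aldosterone, against 4.75, 3.52 and 4.55 with vehicle. At 8 h it read 4.76, 4.37 and 4.56 with aldosterone, against 3.79, 3.67 and 3.85 with vehicle. At 4 and 8 h all aldosterone samples were above all vehicle samples.

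The aldosterone minus vehicle difference of 1425281_a_at was -0.18 ± 0.26 at 2 h and 1.24 ± 0.26 at 4 h, in place 11 of 11236 at 4 h. The 4 h value leaned on vehicle 4 h replicate 2, the lowest vehicle sample of that time, and was 0.86 without it. At 8 h every vehicle sample lay under log2 4, so the level with aldosterone is given as at least 1.48-fold higher (fitted difference 0.79 ± 0.26). In order, its group means were 6.62 ± 0.36 (SD, n = 3) in vehicle at 2 h, 6.44 ± 0.09 in aldosterone at 2 h, 5.51 ± 0.29 in aldosterone at 4 h, 4.56 ± 0.20 in aldosterone at 8 h, 4.27 ± 0.66 in vehicle at 4 h and 3.77 ± 0.09 in vehicle at 8 h. The 2 h groups overlapped each other, and the vehicle 4 h samples overlapped both aldosterone and vehicle at 8 h.

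Probe set 1420772_a_at, built on NM_010286, averaged 4.51 and gave a smaller hormone difference. It read 5.94, 5.12 and 5.71 with aldosterone at 2 h, against 5.24, 5.26 and 5.47 with vehicle, and the groups overlapped. At 4 h it read 4.80, 4.70 and 3.99 with aldosterone, against 4.29, 4.10 and 4.11 with vehicle. At 8 h it read 4.00, 4.24 and 3.94 with aldosterone, against 3.40, 2.87 and 3.94 with vehicle. Only at 8 h did the groups not overlap, by a margin smaller than the rounding of these values, and 2 of the 3 aldosterone samples there were themselves not above log2 4.

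The differences of 1420772_a_at were 0.27 ± 0.26 at 2 h, 0.33 ± 0.26 at 4 h and 0.66 ± 0.26 at 8 h, the last given as at least 1.04-fold higher because all vehicle samples lay under log2 4. At 4 h the 2 Tsc22d3 probe sets therefore stood apart in size, at 1.24 against 0.33, which was not tested. They correlated at r = 0.883 across the 18 samples. The remaining one, 1425557_x_at on AF201288, read between 2.91 and 3.84, at or under log2 4 in all 18 samples, so no fold is given for it.

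Of the 5 probe sets, 4 passed the filter used for all fits, a value above log2 4 in at least 3 samples, and 1425557_x_at did not. At 8 h all 4 had aldosterone and vehicle samples that did not overlap, as did 9.16% of 11236 probe sets in the higher direction. At 4 h there were 2 such probe sets, 1419874_x_at and 1425281_a_at, beside 5.51% of all, and at 2 h there were 0, beside 3.19%. These counts come from the contrast that chose the genes and are not read as evidence.

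**Figure D2:**
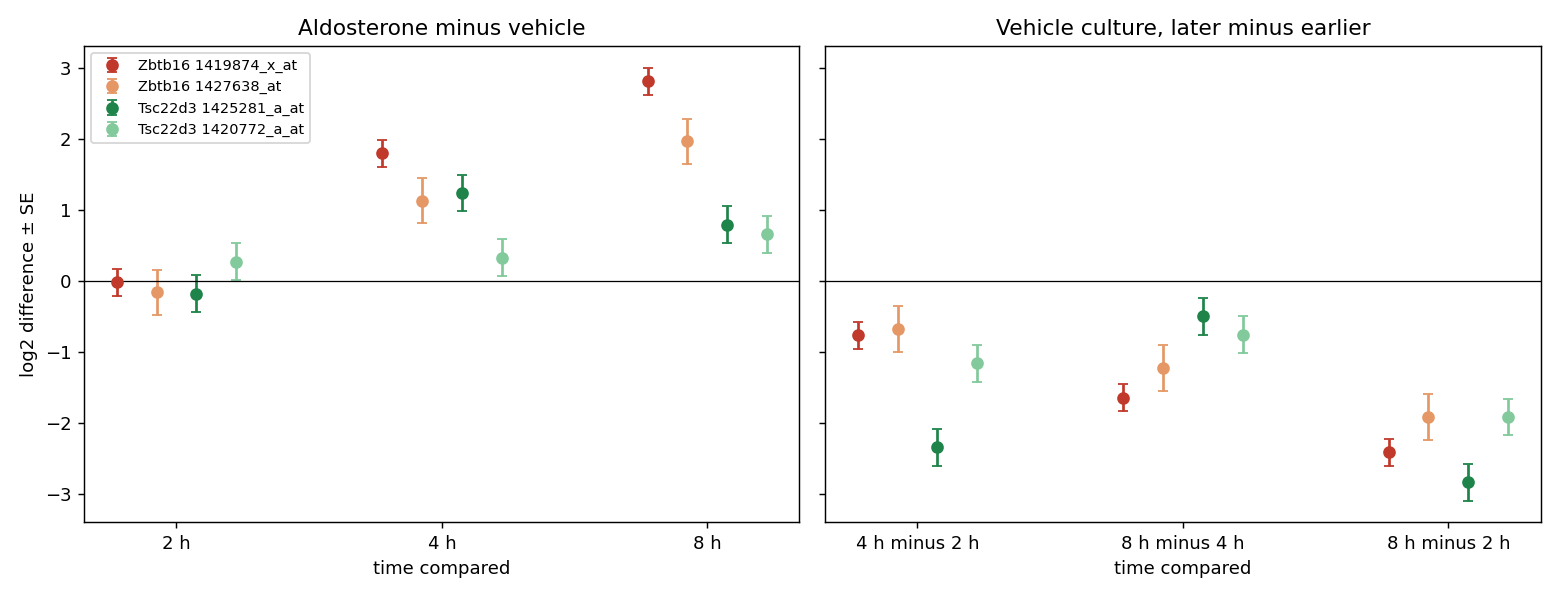
Log2 differences with SE (vertical axis) of the 4 probe sets past the filter, for aldosterone minus vehicle at 2, 4 and 8 h (left, not tested) and for vehicle culture at later minus earlier times (right, tested). At 8 h minus 2 h in vehicle the 4 probe sets lie between -2.84 and -1.92.

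Change over culture time without added aldosterone was tested in the vehicle samples, over all 11236 probe sets with limma and Benjamini-Hochberg adjustment. All animals had carried spironolactone and no group was uncultured, so what drives this change was not tested. Both genes fell. By 8 h, Zbtb16 1419874_x_at was down to 6.23, against 8.65 at 2 h (-2.42 ± 0.19, limma adjusted p = 9.77e-09). The change of 1427638_at was -1.92 ± 0.32 (limma adjusted p = 7.59e-05). For Tsc22d3 the level at 8 h was lower by a factor of at least 6.13 in 1425281_a_at (-2.84 ± 0.26 as fitted, limma adjusted p = 8.86e-08) and of at least 2.5 in 1420772_a_at (-1.92 ± 0.26, adjusted p = 8.46e-06). In all 4 the samples of both times did not overlap, as in 32.3% of all probe sets in the lower direction. Falls were common in culture, with 30.7% of all probe sets called lower at 8 h against 2 h, so a fall as such sets neither gene apart.

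Without vehicle 2 h replicate 1 the vehicle change from 2 to 8 h was -2.49 for 1419874_x_at (adjusted p = 1.97e-08), -1.84 for 1427638_at (0.000318), -2.64 for 1425281_a_at (3.5e-07) and -1.96 for 1420772_a_at (2.33e-05). From 2 to 4 h it was -0.84 (0.00342), -0.61 (0.203), -2.14 (1.43e-05) and -1.20 (0.00431) in the same order of probe sets without that sample, with no call changed. The hormone differences at 2 h were then -0.09, -0.08, 0.03 and 0.22. With all samples, 1419874_x_at was in place 233 of 11236 by size of this fall. A vehicle level that is low at 8 h enters both this fall and the hormone difference at 8 h, so they are not independent measurements.

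The steps within the 8 h were as follows. Tsc22d3 1425281_a_at changed by -2.35 ± 0.26 from 2 to 4 h (limma adjusted p = 4.46e-06), in place 24 of 11236 by size. From 4 to 8 h it changed by -0.50 ± 0.26, which did not pass (adjusted p = 0.154) and ended under log2 4 in every sample, so the size of this later step is only a bound. Without vehicle 4 h replicate 2 that later step was -0.87 and passed (adjusted p = 0.00669). Zbtb16 1419874_x_at fell by 0.77 ± 0.19 from 2 to 4 h (adjusted p = 0.00383) and by 1.65 ± 0.19 from 4 to 8 h (adjusted p = 4.26e-06). No test compared the timing of both genes directly, and the intervals are of unequal length.

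The other probe sets gave smaller or less stable steps. Zbtb16 1427638_at changed by -0.68 ± 0.32 from 2 to 4 h without passing (adjusted p = 0.108), or by -1.06 with a call without vehicle 4 h replicate 3 (adjusted p = 0.0151), and fell by 1.23 ± 0.32 from 4 to 8 h (adjusted p = 0.00655). Tsc22d3 1420772_a_at fell by 1.16 ± 0.26 from 2 to 4 h (adjusted p = 0.00261). Its step from 4 to 8 h, -0.76 ± 0.26 (adjusted p = 0.0312), lost its call without any 1 of vehicle 4 h replicates 1, 2 or 3 or vehicle 8 h replicates 1 or 2, with values of -0.80 to -0.50. Called lower were 3 of 4 probe sets from 2 to 4 h, beside 22.6% of all, and 3 of 4 from 4 to 8 h, beside 16.2% of all.

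In aldosterone cultures the same span looked different for each gene. Zbtb16 1419874_x_at was 1.04 ± 0.19 higher at 4 h than at 2 h and still 0.42 ± 0.19 higher at 8 h than at 2 h. Tsc22d3 1425281_a_at was lower by 4 h (-0.93 ± 0.26) and lower still at 8 h against 2 h (-1.88 ± 0.26), and 1420772_a_at stood at -1.53 ± 0.26 at 8 h against 2 h. So the 8 h hormone difference of Zbtb16 was mostly the vehicle fall, with aldosterone cultures at or above their 2 h level. That of Tsc22d3 was a smaller loss with hormone than without. From 2 to 4 h, 1419874_x_at changed by 1.04 with aldosterone and by -0.77 with vehicle, and 1427638_at by 0.60 and -0.68. Of the 233 probe sets whose mean in vehicle fell from 2 to 8 h at least as far as that of 1419874_x_at, 1 had an aldosterone mean at 8 h at or above that at 2 h, and it was 1419874_x_at itself. This count was chosen after the values were seen and carries no test. Its cut is the fall of 1419874_x_at itself, and the hormone difference that chose the gene enters it, so it is not separate evidence. The other Zbtb16 probe set, 1427638_at, fell less in vehicle (-1.92) and lies outside the cut, with a change of 0.21 in aldosterone.

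**Figure D3:**
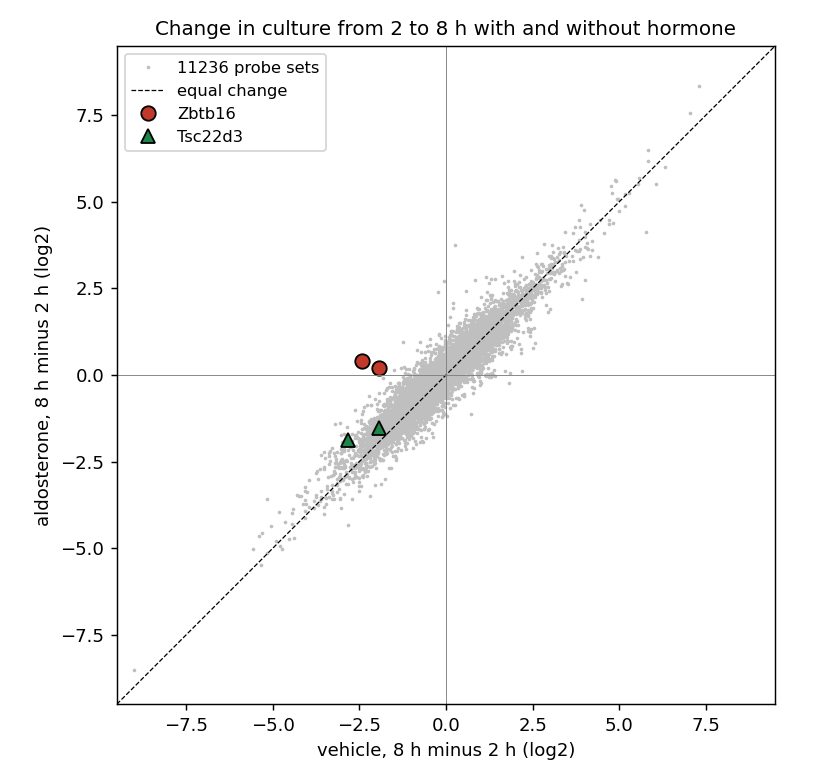
Change from 2 to 8 h in aldosterone cultures (vertical axis, log2) against the same change in vehicle cultures (horizontal axis, log2) for 11236 probe sets in grey, with Zbtb16 as red circles, Tsc22d3 as green triangles and equal change as a dashed line. Both Zbtb16 probe sets lie above 0 on the vertical axis, at 0.42 and 0.21, and near -2 on the horizontal one, while those of Tsc22d3 lie nearer the dashed line.

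These are bulk samples, in which fewer cells of a type and less RNA per cell cannot be told apart. Marker levels of several cell types also went down over time in vehicle: at 8 h against 2 h, 7 of 7 fibroblast, 6 of 8 smooth muscle, 6 of 8 macrophage, 5 of 6 adipocyte and 4 of 8 endothelial markers were called lower, with medians of -1.48, -0.71, -2.18, -1.78 and -0.62. Without vehicle 2 h replicate 1 these counts were 7, 7, 5, 5 and 4, and the adipocyte median was -1.36. Of all 7092 genes tested, 31.8% were called lower at this step. Between treatments at 8 h, the summed adipocyte markers ranged from 13.91 to 14.17 on the log2 scale with aldosterone and from 13.50 to 13.64 with vehicle, the same direction as Zbtb16. At 4 h those sums overlapped, at 13.54 to 14.06 with aldosterone and 13.39 to 13.74 with vehicle. At that time the groups of Zbtb16 1427638_at overlapped too, and those of 1419874_x_at did not. At 8 h limma called 0 of the 6 measured adipocyte markers, beside 0.86% of all genes called higher. At an unadjusted p under 0.05, 2 were higher and 0 lower, beside 4.12% and 2.17% of all genes. The adipocyte median was 0.38 against 0.01 over all genes. Fabp4, a fatty acid carrier, differed by 0.45 ± 0.14 (limma adjusted p = 0.208). Of 8 macrophage markers 1 was called higher with aldosterone at 8 h, beside 0.86% of all genes, with a list median of 0.00. This was the mannose receptor gene Mrc1, at 1.27 ± 0.28 (limma adjusted p = 0.0358). Summed smooth muscle markers ran from 15.09 to 15.32 with aldosterone at 8 h and from 15.22 to 15.47 with vehicle. The part of cell make-up in the results for Zbtb16 and Tsc22d3 was not tested.

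Other corticosteroid targets show the setting in which the 2 genes moved. A list of 32 such genes, without Zbtb16 and Tsc22d3, was chosen with earlier results of these data known, as were the lists below. The aldosterone counts of these lists at each time are therefore descriptions and not evidence of enrichment. Of the 32 genes, 28 passed the filter. At 8 h 10 of these rose with aldosterone and 0 fell, beside 0.86% and 0.141% of all 7092 genes, and their median difference was 0.33 against 0.01 over all genes. Fkbp5, whose product binds HSP90 and lowers receptor affinity for hormone, rose 6.96-fold (2.80 ± 0.26, limma adjusted p = 9.48e-06). That is close in size to Zbtb16 1419874_x_at (2.82 ± 0.19), while Zbtb16 1427638_at gave 1.97 ± 0.32. Lcn2, an iron-sequestering secreted protein, rose to 5.88 with aldosterone, against 3.78 with vehicle (limma adjusted p = 1.33e-05). No exact fold is given, since the vehicle mean lies under log2 4. The 2 and 4 h means of Lcn2 lay between 3.21 and 3.55, so it met the filter through the group where it is high. Its place among the 10 is therefore not independent of the filter. Mt1, a zinc-binding metallothionein, rose 2.2-fold (0.0033), and Klf9, a Krüppel-like factor, rose 1.78-fold (0.000692). The count at 8 h was 6 without aldosterone 8 h replicate 2.

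At 4 h 5 of the 28 rose and 0 fell, beside 0.212% higher and 0.0141% lower among all genes, with a median of 0.24 against 0.01. Named after their values were seen, these were Fkbp5 at 1.90 ± 0.26, Per1, a clock repressor, at 1.41 ± 0.26, Mt1 at 1.06 ± 0.19, the kinase gene Sgk1 at 0.93 ± 0.17 and Mt2 at 0.90 ± 0.18. The count was 3 without vehicle 4 h replicate 1 or 2 and 1 without vehicle 4 h replicate 3 or any 1 of the 3 aldosterone 4 h samples. At 2 h limma called 0 of 28 in either direction, beside 0.0423% higher and 0.0282% lower among all genes. At an unadjusted p under 0.05 there were 8 higher and 2 lower of the 28, beside 3.5% and 7.49% of all genes. The median was 0.02 against -0.07 over all genes, and 3 were called higher without vehicle 2 h replicate 1, beside 0.324% of all genes.

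In vehicle 8 of the 28 rose and 11 fell from 2 to 4 h, beside 14.3% and 25.1% of all genes, and 5 rose and 11 fell from 4 to 8 h, beside 20.6% and 16.8%. The 8 that rose by 4 h were 5 in number without vehicle 2 h replicate 2 or replicate 3, and 4 in a fit of only the samples compared. Without vehicle 2 h replicate 1, 10 rose and 10 fell from 2 to 4 h, beside 19.9% and 19.3% of all genes. From 2 to 8 h, 9 rose and 15 fell, beside 26.5% and 31.8% of all genes, with a median of -0.89 against -0.07. The 9 include Lcn2, whose vehicle means of 3.21 at 2 h and 3.78 at 8 h both lie under log2 4. Without vehicle 2 h replicate 1, 11 rose and 15 fell, beside 32.2% and 28.5% of all genes. Klf9 fell by 1.17 ± 0.12 (limma adjusted p = 2.24e-07), and Fkbp5 changed by -0.24 ± 0.26 without passing (adjusted p = 0.455), a value whose sign turned without that sample (0.17 ± 0.19, adjusted p = 0.469). Zbtb16 and Fkbp5 had hormone differences of 2.82 and 2.80 at 8 h and vehicle changes of -2.42 and -0.24, which were not tested against each other.

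**Figure D4:**
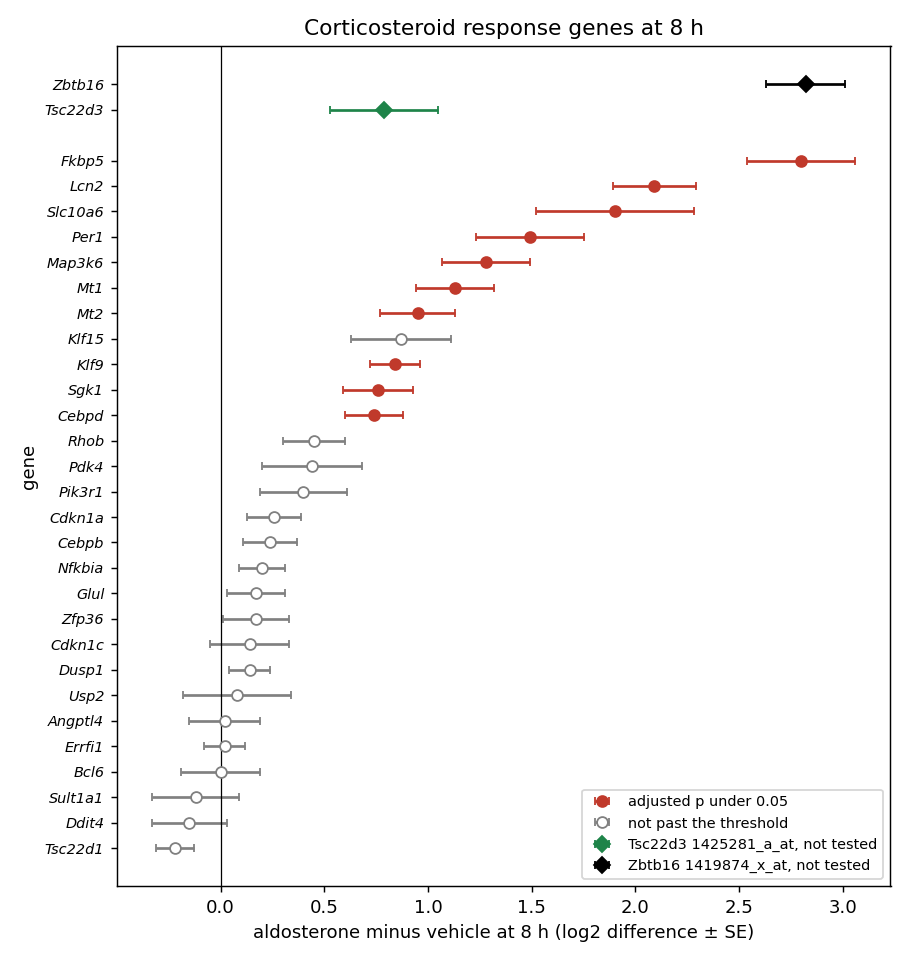
Aldosterone minus vehicle at 8 h (horizontal axis, log2 difference with SE) for the 28 corticosteroid response genes past the filter, with genes called by limma in red, the others open, and Zbtb16 and Tsc22d3 as untested diamonds at the top. Zbtb16 at 2.82 lies beside Fkbp5 at 2.80. Tsc22d3, at 0.79 ± 0.26, is near in size to Klf9 (0.84 ± 0.12) and Sgk1 (0.76 ± 0.17), both called. It is also near Klf15 (0.87 ± 0.24), which was not called. The vehicle samples behind this Tsc22d3 value all lay under log2 4.

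On the receptor side, Nr3c1, the glucocorticoid receptor, did not pass in any comparison, at -0.14 ± 0.15 at 2 h, -0.20 ± 0.15 at 4 h and -0.33 ± 0.15 at 8 h with aldosterone (limma adjusted p from 0.751 to 1), and at -0.28 ± 0.15 in vehicle from 2 to 8 h (0.128). Of 8 measured receptor, prereceptor enzyme, coactivator and chaperone genes, limma called 0 with aldosterone at each time. Over all genes, 0.0423% were called higher at 2 h, 0.212% at 4 h and 0.86% at 8 h. At an unadjusted p under 0.05 there were 1 lower at 2 h, 0 at 4 h and 1 lower at 8 h, beside 7.49%, 1.55% and 2.17% of all genes in the lower direction. In vehicle from 2 to 8 h, Hsd11b1, which regenerates active glucocorticoid inside cells, fell by 1.53 ± 0.22, the coactivator Ncoa1 by 1.69 ± 0.21 and the chaperone Hspa8 by 0.71 ± 0.11. The cochaperone Stip1 rose by 1.13 ± 0.30. These 4 were the ones called and were named after their values were seen; 1 higher and 3 lower of 8 stand beside 26.5% and 31.8% of all genes, and the counts were the same without vehicle 2 h replicate 1.

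Relatives of the 2 genes were counted next. Of 16 other BTB zinc finger genes past the filter, limma called 0 with aldosterone at 2, 4 and 8 h, beside 0.0423%, 0.212% and 0.86% of all genes called higher, so a count of 0 sets this family apart from no other genes. At an unadjusted p under 0.05 there were 4 lower at 2 h, beside 7.49% of all genes in the lower direction. At 4 and 8 h there were 0, beside 3.76% and 6.29% of all genes in either direction. The 2 h median of the 16 was -0.20 against -0.07 over all genes, or -0.13 against 0.04 without vehicle 2 h replicate 1. Their median difference at 8 h was 0.00, and over all genes it was 0.01. Within the TSC22 family, Tsc22d1 and Tsc22d4 were measured. Tsc22d1 differed by -0.22 ± 0.09 at 8 h (adjusted p = 0.573) and Tsc22d4 by 0.12 ± 0.16 (adjusted p = 1). In vehicle Tsc22d1 rose by 0.79 ± 0.09 from 2 to 8 h (adjusted p = 1.07e-06), the opposite direction to Tsc22d3, and Tsc22d4 changed by -0.20 ± 0.16 (adjusted p = 0.287).

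Genes that work with PLZF or GILZ were also counted. Of 17 measured PLZF corepressors, partners and reported targets, limma called 0 with aldosterone at each time. The shares of all genes called higher were 0.0423% at 2 h, 0.212% at 4 h and 0.86% at 8 h. Counts at an unadjusted p under 0.05 were 3 lower at 2 h (7.49% of all genes), 0 at 4 h (3.76% in either direction) and 1 higher at 8 h (4.12%). From 2 to 8 h in vehicle 4 of these rose and 6 fell, near the 26.5% and 31.8% of all genes, or 6 and 6 without vehicle 2 h replicate 1. Of 10 measured GILZ partners and NF-kB, AP-1 and FOXO factors, 1 rose with aldosterone at 8 h, beside 0.86% of all genes. This was Cebpd, a C/EBP transcription factor, at 0.74 ± 0.14 (adjusted p = 0.00834). Rela, whose product GILZ binds, differed by -0.07 ± 0.14 at 8 h (adjusted p = 1). In vehicle from 2 to 8 h, 7 of the 10 fell and 0 rose, beside 31.8% and 26.5% of all genes, or 7 and 2 without vehicle 2 h replicate 1. Singled out after their values were seen, Foxo1 and Foxo3, forkhead factors of which FOXO3 is known to induce GILZ in lymphocytes, fell by 1.49 ± 0.14 and 1.21 ± 0.16 over that span (adjusted p = 1.49e-07 and 5.6e-06). Lcn2 apart, 19 genes outside the pair have a named vehicle change from 2 to 8 h. Of these 19, 0 changed their call without vehicle 2 h replicate 1, and Fkbp5 alone changed sign.

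Genes whose levels ran most like those of the 2 regulators were found by Pearson correlation over the 18 samples, among 7091 other genes. Samples share their groups and libraries, so the coefficients are descriptions. Nearest to Zbtb16 1419874_x_at were Klf9 (r = 0.879), Ccn2, a matricellular growth factor (0.865), the clock repressor Per2 (0.86), the zinc finger gene Zfp281 (0.857) and Adamts15, a secreted metalloproteinase (0.856). In each of these 5 the aldosterone mean exceeded the vehicle mean at 4 and at 8 h, as with Per2 at 7.61 in aldosterone and 5.81 in vehicle at 8 h. Nearest to Tsc22d3 1425281_a_at were the insulin receptor substrate Irs2 (0.922), Rgs2, which shortens G protein signalling (0.919), the autophagy adaptor Wdfy3 (0.918), Rasd1, a small G protein induced by dexamethasone (0.918), and the F-box gene Fbxo3 (0.917). Their group means were highest at 2 h and lower at 4 and 8 h in both arms; Irs2 stood at 8.86, 7.12 and 5.53 with aldosterone at 2, 4 and 8 h and at 8.77, 6.42 and 4.71 with vehicle. The lists of the 2 regulators share no gene, and Zbtb16 and Tsc22d3 themselves correlated at 0.569.

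**Figure D5:**
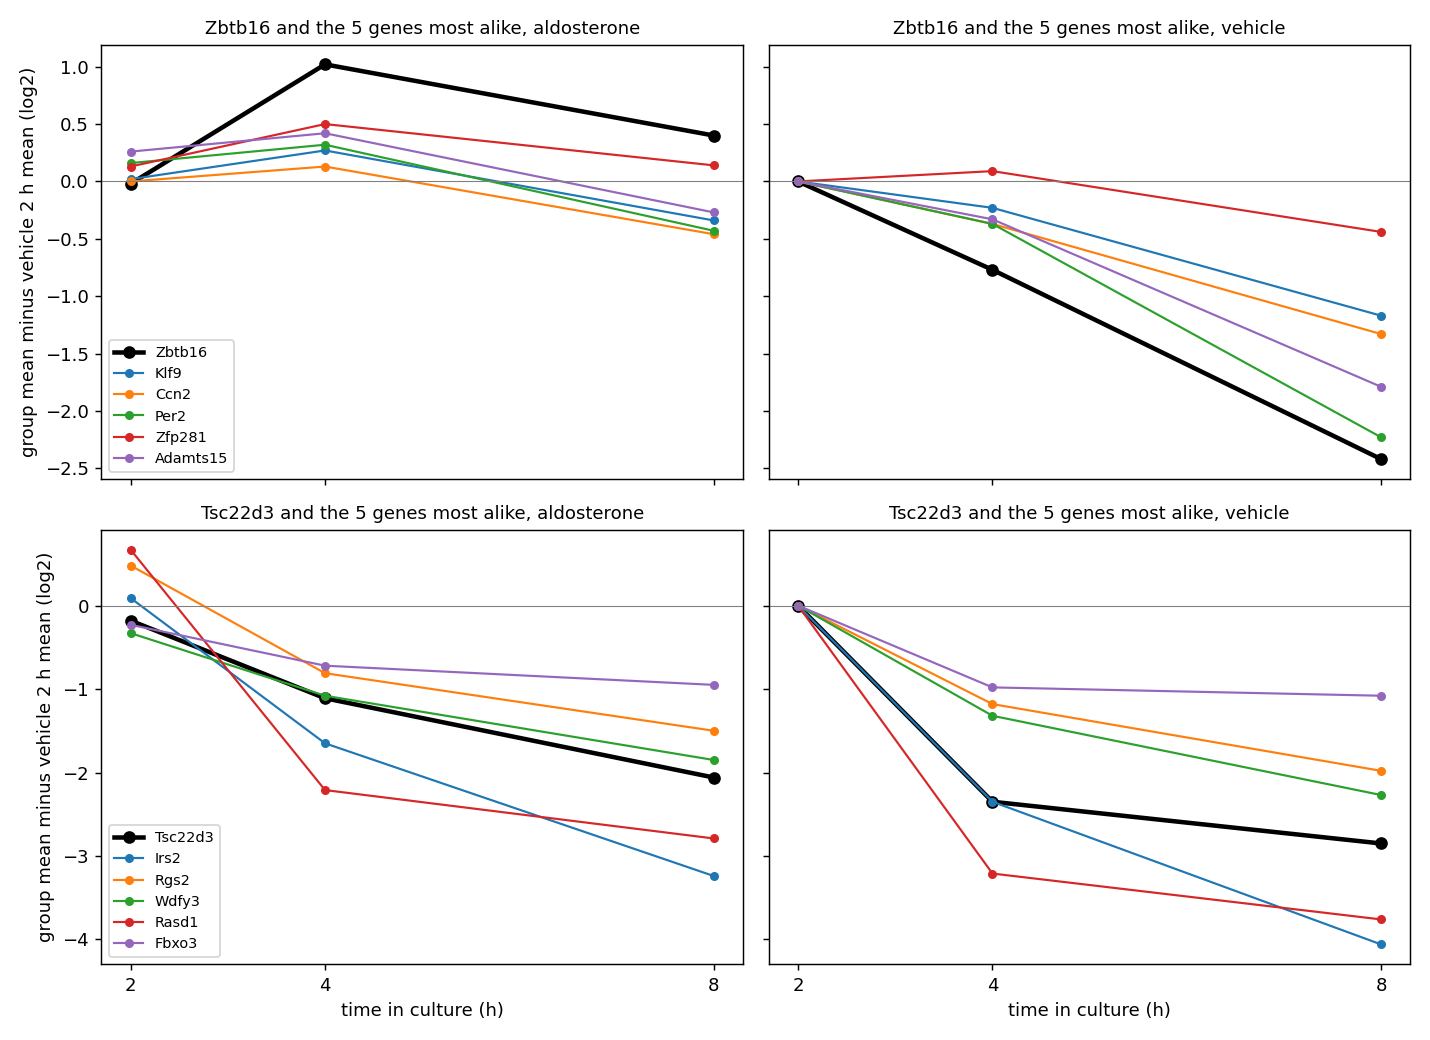
Group means minus the vehicle 2 h mean (vertical axis, log2) by time in culture for Zbtb16 1419874_x_at (top) and Tsc22d3 1425281_a_at (bottom), in black, with the 5 genes most correlated with each over 18 samples; aldosterone is on the left and vehicle on the right. The Zbtb16 mean with aldosterone stood above the vehicle 2 h mean at 4 and 8 h, with the samples overlapping at 8 h. Tsc22d3 and its 5 nearest genes went down in both arms.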

How the data were processed

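Per the submitters' processing notes, the authors' deposited log2 expression values were made with GCRMA; its version and settings were not stated, and raw array files were not used. Probe sets were named from GEO's platform annotation: 20380 belong to 1 gene, 691 to several and 1606 to none; array control probe sets were left out. Probe sets with 1 gene and a log2 value above 4 in at least 3 of 18 samples (11236, for 7092 genes) entered a cell-means model of the 6 groups in limma 3.58.1 (R 4.3.3) with an intensity trend (12 residual and 17.1 total degrees of freedom). P-values are two-sided, adjusted by Benjamini-Hochberg over the 11236 probe sets, with a threshold of 0.05. SE values use 1 spread per probe set over all samples. For gene lists, the probe set with the highest mean stood for its gene. Where all samples of a group lay at or under log2 4, the fold compares the brighter group's mean with log2 4.

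The pipeline was tested on simulated data. Nothing in the labels ties samples to animals beyond the pools of 3 aortas. The members and lists were chosen with earlier results of these data known. Genes were named by rule: up to 4 called genes per list with the smallest p at 8 h, Nr3c1, and the 5 genes most correlated with each member. Others were named outside this rule, and some of them are marked in place. Fabp4, Mrc1, Rela, Tsc22d1, Tsc22d4, Id2, Ddit4, Fos, Jun and Atp6ap2 also fall outside it. Alternatives were no filter, a filter at 6, 1 probe set per gene, no trend, a repeated quantile normalization, array weights, centring on medians, a replicate block, only the samples compared, and each sample left out. Sequences come from RefSeq (GRCm38.p6).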

Additional observations from a re-analysis of the deposited data

How the results depend on the processing

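For the 4 probe sets, 12 tested vehicle changes gave 315 values under the alternatives, of which 304 kept direction and call, 7 lost a call, 4 gained one and 0 turned direction. The 12 untested hormone differences gave 315 values, of which 314 moved by less than the spread between replicates. The other, Tsc22d3 1425281_a_at at 4 h, was 0.86 without vehicle 4 h replicate 2 (range 0.86 to 1.47 with 1 sample left out, against 1.24). The 2 h hormone differences of 1419874_x_at ran from -0.14 to 0.12, so their sign has no meaning. For 1419874_x_at the vehicle change from 2 to 4 h, -0.77, lost its call in a fit of only the samples compared (adjusted p = 0.0696). The 4 to 8 h change of 1425281_a_at passed with array weights, at -0.65 (adjusted p = 0.0316), and ran from -0.87 to -0.26 with 1 sample left out. That of 1420772_a_at lost its call without the filter (-0.76, adjusted p = 0.0645).

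Of 28 corticosteroid response genes, those called higher at 2 h numbered 0, but 2 with median centring, 3 with array weights and 0 to 3 with 1 sample left out. At 4 h there were 5, but 1 with no filter, 3 without the trend, 3 in a fit of only the samples compared, and 1 to 6 with 1 sample left out. At 8 h there were 10, or 6 to 11 with 1 sample left out. In vehicle from 2 to 4 h there were 8, but 4 with only the samples compared and 5 to 10 with 1 left out. Called probe sets over the whole table ranged from 0 to 72 around 8 at 2 h, from 8 to 62 around 25 at 4 h and from 46 to 340 around 114 at 8 h. In vehicle they ranged from 1734 to 4783 around 4100 (4 against 2 h), 2677 to 5310 around 3981 (8 against 4 h) and 4150 to 7204 around 6329 (8 against 2 h).

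Replicate numbers are shared between groups, but deviations of same-numbered samples correlated weakly at most (r from -0.187 to 0.283 over 18 pairs). The numbers were therefore not taken as pairs. At 2 h each aldosterone sample did correlate best with the vehicle sample of its own number, at r = 0.0923, 0.082 and 0.0176. With the replicate block, the 2 to 8 h vehicle change of 1419874_x_at kept its call (-2.42, adjusted p = 7.72e-08), and no call of the 4 probe sets changed; the block gave 107 called probe sets at 8 h in place of 114. Values near log2 4 are imprecise, which limits Tsc22d3 most.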

Other observations

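Among the BTB zinc finger relatives of Zbtb16, genes moved in both directions in vehicle culture between 2 and 8 h. Of the 16 measured, 4 were called higher and 6 lower, beside 26.5% and 31.8% of all genes, or 5 and 6 without vehicle 2 h replicate 1. Zbtb2 fell by 2.17 ± 0.21 (limma adjusted p = 1.94e-07) and Zbtb20 fell by 1.94 ± 0.32 (adjusted p = 5.81e-05; -2.48 without that sample), beside -2.42 in Zbtb16, while Zbtb18 rose by 1.51 ± 0.15 (adjusted p = 2.09e-07). These 3 were picked after their values were seen, and none of the 16 was called with aldosterone.

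In the list for PLZF, Id2, an inhibitor of basic helix-loop-helix factors, fell by 3.53 ± 0.14 in vehicle from 2 to 8 h (limma adjusted p = 5.44e-12) and Ddit4, an mTOR inhibitor induced by stress, rose by 1.89 ± 0.18 (adjusted p = 1.26e-07). For GILZ, the AP-1 genes Fos and Jun changed by -5.56 ± 0.18 and -2.70 ± 0.12 over the same span (adjusted p = 2.86e-13 and 2.32e-11). Atp6ap2, the prorenin receptor, whose product binds PLZF, fell by 0.84 ± 0.10 in vehicle and differed by 0.10 ± 0.10 with aldosterone at 8 h, without passing (adjusted p = 1). All genes of this paragraph were named outside the naming rule.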
